A study of Mus musculus with 4 samples.

Results

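The genes described here code for the receptors through which a cell holds on to collagen, laminin, fibronectin and hyaluronan. They are 25 integrin subunits, 4 syndecans, 2 discoidin domain receptors and the hyaluronan receptor Cd44, 32 genes in all, listed by gene family. All 32 were on the array, where 51 of 56605 probes that are not controls matched them by RefSeq accession, out of 22911 genes with a matched symbol.

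RNA came from 2 mouse ovarian cancer cell lines, each hybridized as Cy3-labeled cRNA to 2 Agilent microarrays. ID8G is the parental line, ID8 cells that carry GFP from a retrovirus. ID8 cells derive from the ovarian surface epithelium of C57BL/6 mice. GO2 is 1 line selected from ID8G by 2 rounds of intraperitoneal injection into female C57BL/6J mice, each followed by sorting of CD45-negative, GFP-positive cells from omental tumors. Both lines carry GFP. The study's methods give the medium of ID8 cells as DMEM with 4% fetal bovine serum, insulin, transferrin and selenite. They name no separate medium for GO2 cells. The labels do not say whether the arrays of 1 line came from separate cultures, so p-values measure only the spread between these arrays, which may be technical, and with 1 selected line the selection and the history of that line cannot be told apart.

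An integrin is a pair of 1 alpha and 1 beta subunit, and the pair sets which ligand is bound. Most alpha subunits for collagen and laminin pair with Itgb1, while alphav also pairs with Itgb3, Itgb5, Itgb6 or Itgb8 and binds proteins with an RGD motif such as vitronectin and fibronectin. Discoidin domain receptors are tyrosine kinases that bind collagen, and syndecans are proteoglycans that bind matrix proteins through heparan sulfate. In the peritoneal cavity, ovarian cancer cells are known to attach to the mesothelial lining and to the collagen, laminin and fibronectin beneath it.

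A level is the log2 intensity of a probe after its array was set to 0 at the 75th percentile, and levels of different probes are not read as amounts relative to each other. A gene stands by its probe of highest mean level, and the other probes are given where they differ. A probe was tested when both arrays of 1 line or of the other read it well above background, and was called at an adjusted p below 0.05 (limma, Benjamini-Hochberg) and a difference of at least 2-fold. The arrays had 27502 to 28841 probes well above background and 0 saturated spots. The 2 arrays of each line correlated at r = 0.997 across probes. Over all 13212 genes tested, 787 were called higher in GO2 cells and 521 lower, so that 60.2% of calls were higher. Scaled to the spike-ins instead, 672 were higher and 714 lower (48.5% higher).

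Of the 32 receptor genes, 20 were tested, 3 were called higher in GO2 cells and 2 lower. Itga11 and Ddr2, both collagen receptors, and Sdc2 were higher. Itga6, a laminin-binding subunit, and Itgb3, a partner of alphav, were lower. The 5 calls are 25.0% of the receptor genes tested, where over all genes 9.90% were called (5.96% higher and 3.94% lower). The receptor genes were chosen with earlier results of these data known, so this contrast is no test of enrichment. Ddr2 was tested only through GO2 cells, where it is high, and with the filter on all 4 arrays 4 of 17 receptor genes were called (23.5%), beside 6.57% of all genes. The median difference of the 20 genes was 0.04 on the log2 scale, beside -0.00067 over all genes tested. By adjusted p alone, 6 further receptor genes passed (Itga10 and Ddr1 higher, Itga3, Itgb1, Itgb5 and Sdc1 lower) with differences under 2-fold, and 9 did not. Of these 6, Itga3 alone kept an adjusted p below 0.05 whichever array was left out. By this looser rule 41.0% of all genes passed, 21.0% higher and 20.0% lower.

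**Figure D1:**
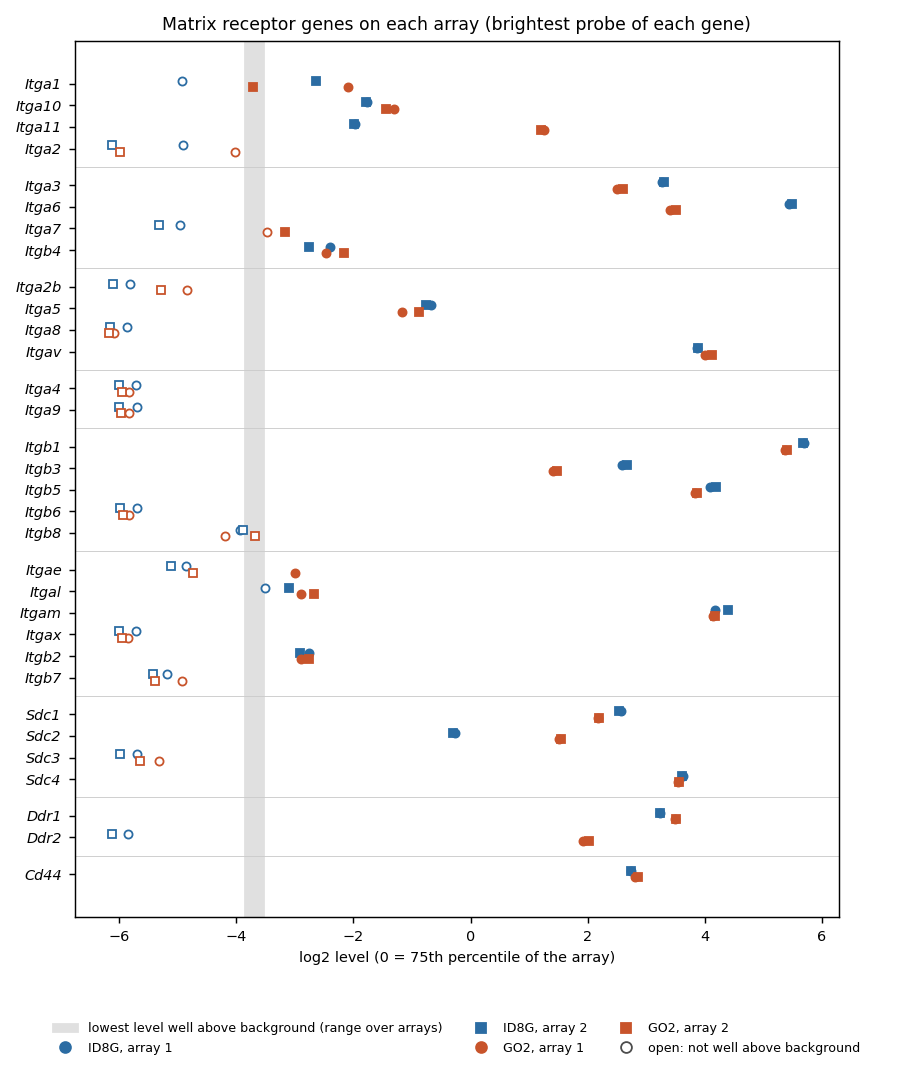
Level of each receptor gene on each array, in log2 units relative to the 75th percentile, by the brightest probe, with 1 point per array, a gray band for the lowest level well above background and open points where the probe was not well above background. Itga11, Ddr2 and Sdc2 have both GO2 arrays above both ID8G arrays, Itga6 and Itgb3 have both below, and the 12 genes that were not tested lie at the dim end.

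The collagen receptors held the largest increases among the receptor genes. Itga11 codes for the alpha11 subunit, which pairs with Itgb1 and is known mainly from fibroblasts. Its only probe, A_51_P417720, had levels of -1.98 and -1.99 in ID8G cells and 1.25 and 1.21 in GO2 cells. All 4 arrays were well above background, and the GO2 arrays lay far above the ID8G arrays. Itga11 was 9.24-fold higher in GO2 cells, a log2 difference of 3.21 ± 0.05 (SE, 95% interval 3.07 to 3.35, adjusted p = 0.000182). Among the 12303 genes above background on all 4 arrays, this was the difference at place 37 from the highest.

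Ddr2 codes for a receptor kinase for fibrillar collagen that is known from mesenchymal cells. Its brightest probe, A_51_P267796, was at -5.85 and -6.12 in ID8G cells, where it was not well above background, and at 1.92 and 2.02 in GO2 cells. Taken against the lowest signal well above background on each ID8G array, Ddr2 was at least 50.1-fold higher in GO2 cells (adjusted p = 0.000182 for the fitted difference of 7.96). The probe A_55_P1992954 went the same way, from -5.81 and -6.11 to -1.42 and -1.16, at least 5.24-fold. The third probe, A_55_P2740134, differed from both: it was above background on 1 ID8G array only (-2.40, with -5.71 on the other) and on neither GO2 array (-4.57 and -4.28), and was not tested.

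The upstream sequences of Itga11 and Ddr2 are shown because these are the 2 collagen receptors that rose together, and because the RefSeq promoter table (GRCm38.p6) held 24 of the 32 receptor genes and only these 2 of the 5 that were called. Each line gives the 250 bases before the annotated start, 5′ to 3′ on the strand of the gene. Capitals mark the 1 motif match found in each, CANNTG (an E-box) in Itga11 and TATAAA, read on the opposite strand, in Ddr2.
Itga11, chr9:62677605-62677854, plus strand: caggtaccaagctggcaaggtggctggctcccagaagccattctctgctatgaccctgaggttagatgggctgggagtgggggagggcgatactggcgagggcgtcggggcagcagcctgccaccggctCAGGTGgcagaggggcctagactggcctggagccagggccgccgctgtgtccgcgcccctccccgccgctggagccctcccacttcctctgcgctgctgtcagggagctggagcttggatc
Ddr2, chr1:170088945-170089194, minus strand: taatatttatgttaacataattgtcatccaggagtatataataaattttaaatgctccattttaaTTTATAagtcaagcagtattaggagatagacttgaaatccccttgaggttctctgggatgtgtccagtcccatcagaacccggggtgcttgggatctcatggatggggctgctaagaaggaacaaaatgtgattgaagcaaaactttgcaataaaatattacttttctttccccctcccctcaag
The Itga11 stretch was 68.4% G and C with 12 CpG pairs, and the Ddr2 stretch 37.6% with 1, where the medians over all 32851 promoters of this length were 52.4% and 6. The E-box letters began at base -121 from the start of Itga11 and occurred in 66.2% of all promoters. The TATAAA letters began at base -185 from the start of Ddr2 and occurred in 12.4%. On both strands, neither stretch held TGANTCA (the AP-1 letters, in 6.75% of promoters), GGAATG (TEAD, 12.6%), GGGCGG (GC box, 32.7%), CCAAT (33.8%) or GTCTAGAC (SMAD, 0.167%). A match describes the letters in this window and not a bound site.

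The other collagen receptors differed by less than 2-fold or could not be compared. Ddr1, the discoidin domain receptor of epithelial cells, was at 3.24 on both ID8G arrays and 3.50 on both GO2 arrays. That is a log2 difference of 0.26 (adjusted p = 0.0227), under 2-fold. Itga10, a cartilage-type collagen receptor subunit, differed by 0.40 (adjusted p = 0.0191), also under 2-fold. Its second probe was above background on no array. When scaled to the spike-ins, neither Ddr1 nor Itga10 passed the test of p, with differences of 0.05 for Ddr1 and 0.19 for Itga10. Itga1 was dim and uneven, with levels of -4.92 and -2.64 in ID8G cells and -2.08 and -3.71 in GO2 cells. Its groups overlapped, and the difference of 0.88 (95% interval -1.80 to 3.57, adjusted p = 0.518) became -0.26 without ID8G replicate 1. Itga2 and the second probe of Itga1 were above background on no array.

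Markers of fibroblasts, a cell type known for Itga11 and Ddr2, did not all go the same way. Of 7 such genes, Col1a1, Col3a1 and Pdgfra were called higher in GO2 cells (log2 differences of 4.69, 4.20 and 3.70). Dcn was lower by less than 2-fold (-0.63, adjusted p = 0.00309), and Lum, Thy1 and Fap were above background on no array. The summed level of these markers, in units of the 75th percentile of each array, was 68.4 to 71.2 in ID8G cells and 129.6 to 130.1 in GO2 cells. Such sums, here and below, add levels of different probes, so the brightest probes weigh most and they are not amounts. GO2 cells were sorted as GFP-positive, a gate that leaves out host cells without GFP. The part of such cells in the result was not tested, and in RNA of a whole culture a change in the number of cells of a type and a change in RNA per cell cannot be told apart.

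**Figure D2:**
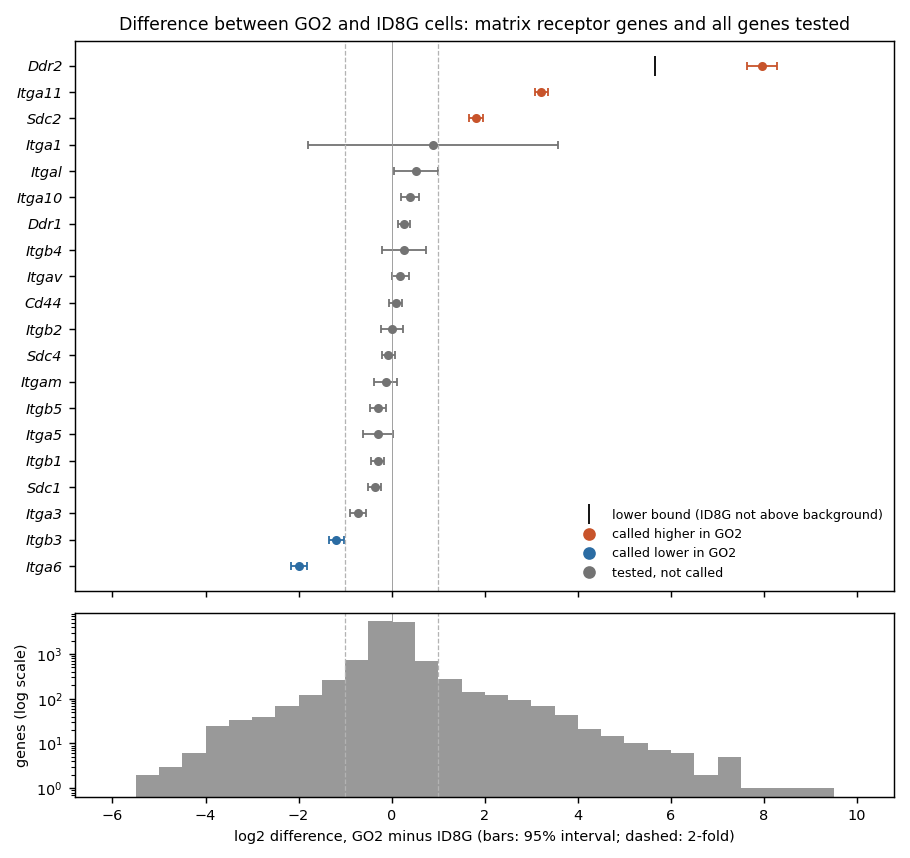
Difference of each tested receptor gene as log2 of GO2 minus ID8G with its 95% interval, ordered by size, above a histogram (log count axis) of all genes tested. Itga11 and Ddr2 lie at 3.21 and 7.96, Itga6 at -2.00, and most others within 1 of 0, where most of the 13212 genes lie. The point of Ddr2 is its fitted value and the black bar its lower bound, since its probe was not above background in ID8G cells.

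Among the laminin receptors, Itga6 was lower in GO2 cells and Itga3 fell by less than 2-fold. Itga6 codes for the alpha6 subunit, which binds laminin as alpha6beta1 or, in hemidesmosomes, as alpha6beta4. Its brightest probe, A_55_P2015670, was at 5.43 and 5.49 in ID8G cells and at 3.41 and 3.51 in GO2 cells. The groups did not overlap, and Itga6 was 4.00-fold lower in GO2 cells, with a log2 difference of -2.00 ± 0.06 (SE, 95% interval -2.17 to -1.83, adjusted p = 0.000325). This was place 75 from the lowest among the genes above background on all 4 arrays. The 2 other Itga6 probes were called in the same direction. A_55_P2742291 differed by -2.14, and A_65_P04508 went from -2.39 and -2.25 to levels not above background (-5.38 and -5.61), at least 2.81-fold lower.

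Itga3, which pairs with Itgb1 to bind laminin, was at 3.27 and 3.30 in ID8G cells and at 2.50 and 2.60 in GO2 cells. The groups did not overlap, and the difference of -0.73 (adjusted p = 0.00306) passed the test of p but not 2-fold. Its second probe differed by -0.53. Itgb4, the hemidesmosome partner of alpha6, differed by 0.26 (adjusted p = 0.299) with overlapping arrays, at -2.40 and -2.75 in ID8G cells and -2.47 and -2.16 in GO2 cells. With 1 array left out it ranged from 0.08 (without ID8G replicate 2) to 0.44 (without ID8G replicate 1), and it was 0.05 when scaled to the spike-ins. Itga7, known from muscle, was above background on 1 GO2 array and on no ID8G array and was not tested. With no filter on dim probes it was called higher.

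Of 6 epithelial markers, 4 were tested, with 1 called lower in GO2 cells and 3 not called. Krt19 was called lower (-1.65). Krt8, Krt18 and Cdh1 differed by -0.55, -0.81 and -0.34 without a call, and Cdh1 did not pass the test of p (adjusted p = 0.060). Epcam and Krt7 were above background on no array. The summed level of the epithelial markers was 543 to 561 in ID8G cells and 284 to 285 in GO2 cells. Its part in the lower level of Itga6 was not tested.

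The shared subunit Itgb1, which pairs with most of the alpha subunits above, was at 5.69 and 5.67 in ID8G cells and at 5.37 and 5.40 in GO2 cells. The difference of -0.30 (adjusted p = 0.0173) was under 2-fold, and the second probe differed by -0.39. Differences of log2 level between 2 probes on the same array do not depend on how the array is scaled, so the alpha subunits were also set against Itgb1. Relative to Itgb1, Itga11 was 3.51 higher in GO2 than in ID8G cells on the log2 scale, Itga6 was -1.70 and Itga3 -0.43. Itga11 relative to Itga6 went from -7.41 and -7.47 in ID8G cells to -2.17 and -2.30 in GO2 cells, a change of 5.21. These ratios compare changes and not amounts, since the probes differ.

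Of the subunits that bind RGD proteins, Itgb3 was lower in GO2 cells and its partner Itgav was not called. Itgb3, the beta subunit of the vitronectin receptor alphavbeta3, was at 2.58 and 2.67 in ID8G cells and at 1.41 and 1.47 in GO2 cells by its brightest probe, A_52_P553890. The groups did not overlap, and Itgb3 was 2.28-fold lower, a log2 difference of -1.19 ± 0.06 (SE, 95% interval -1.36 to -1.02, adjusted p = 0.000924). The dimmer probe A_66_P126293 differed by -0.78 (adjusted p = 0.0044), which is under 2-fold, and the mean over both probes, -0.98, was not called. Itgav was at 3.86 and 3.88 in ID8G cells and at 4.00 and 4.12 in GO2 cells. Its difference of 0.19 (adjusted p = 0.0936) turned to -0.02 when scaled to the spike-ins. Relative to Itgav on the same array, Itgb3 changed by -1.38 and Itgb5 by -0.48.

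Itgb5, another beta subunit of alphav, differed by -0.29 (adjusted p = 0.0291). Itgb6 and Itgb8, which with alphav activate latent TGF-beta, were above background on no array. Itga5, whose product forms the classical fibronectin receptor with Itgb1, was at -0.68 and -0.76 in ID8G cells and at -1.16 and -0.87 in GO2 cells. The groups did not overlap, but the difference of -0.29 did not pass the test (adjusted p = 0.123). It was -0.15 without GO2 replicate 1 and -0.44 without GO2 replicate 2 (adjusted p = 0.0486), and -0.50 when scaled to the spike-ins (adjusted p = 0.0111). Itga8 and Itga2b were above background on no array. Itga2b is the platelet partner of Itgb3, and the platelet markers Pf4, Ppbp, Gp9 and Gp1ba were above background on no array.

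**Figure D3:**
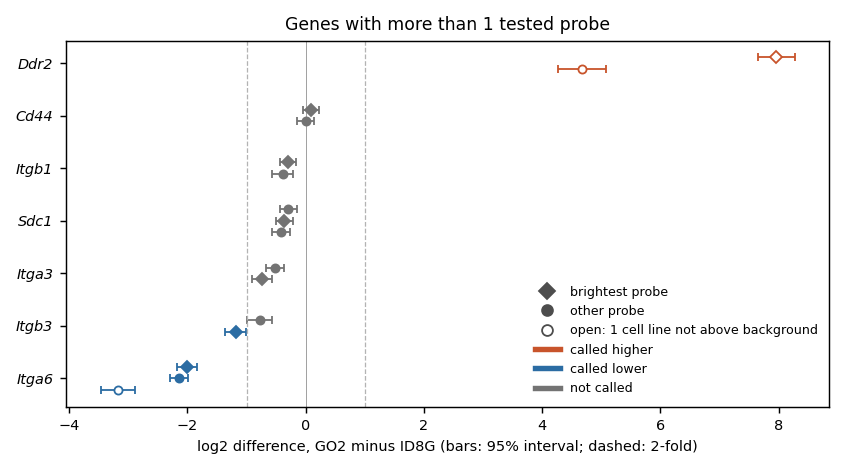
Difference of each tested probe, as log2 of GO2 minus ID8G, for the receptor genes with more than 1 tested probe, with bars for the 95% interval, diamonds for the brightest probe and open symbols where 1 line was not above background. The probes of Itga6 all lie at or below -2.00, those of Sdc1 lie between -0.29 and -0.42, and the probes of Itgb3 fall on both sides of the 2-fold line at -1.19 and -0.78.

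Integrins named for leukocytes were dim or not measurable, with 1 exception. Itgal and Itgb2, the subunits of LFA-1, had levels between -3.52 and -2.68. Itgal differed by 0.52 (adjusted p = 0.0833, and 0.0344 without ID8G replicate 2), and Itgb2 by 0.00 with an interval of -0.24 to 0.24. The sign of Itgb2 turned under several other settings, to -0.21 when scaled to the spike-ins. Itgam, known from macrophages and other myeloid cells, read 4.18 and 4.39 in ID8G cells and 4.13 and 4.17 in GO2 cells by the probe A_55_P1977934. The groups were apart by a small margin, but the difference of -0.13 did not pass the test (adjusted p = 0.311, and 0.0415 when scaled to the spike-ins). Its other probe, A_55_P1977926, was above background on 1 GO2 array only, at levels between -3.93 and -3.32, so the 2 probes disagreed and the bright level of Itgam is uncertain. Itgae was above background on 1 GO2 array, and Itgax and Itgb7 on none.

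The leukocyte markers Ptprc, Lyz2, Laptm5, Adgre1, Cd52, Tyrobp and Coro1a were above background on no array. The 4 that were tested (Cd3e, Cd68, Csf1r and Fcer1g) had differences of -0.19 to 0.22 and none was called. The summed level of the leukocyte markers was 4.92 to 4.98 in ID8G cells and 5.22 to 5.99 in GO2 cells. GO2 cells were sorted as CD45-negative, and Ptprc codes for CD45.

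Itga4 and Itga9, the alpha subunits that bind Vcam1 and tenascin, were above background on no array by any of 4 probes, in either line.

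Among the syndecans, Sdc2 alone was called. Sdc2, known from mesenchymal cells, was at -0.27 and -0.29 in ID8G cells and at 1.51 and 1.55 in GO2 cells, by 1 probe. The groups lay well apart, and Sdc2 was 3.51-fold higher in GO2 cells, a log2 difference of 1.81 ± 0.05 (SE, 95% interval 1.67 to 1.95, adjusted p = 0.000303). This was place 173 from the highest among the genes above background on all 4 arrays. Sdc1, the epithelial syndecan, differed by -0.36 (adjusted p = 0.011), and its 3 probes ranged from -0.29 to -0.42, all lower by less than 2-fold. Sdc4, a component of focal adhesions, differed by -0.07 (adjusted p = 0.311). On the same arrays, Sdc2 rose by 2.17 relative to Sdc1 and by 1.88 relative to Sdc4. Sdc3, known from neurons, was above background on no array.

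Cd44, the main receptor for hyaluronan, was at 2.75 and 2.74 in ID8G cells and at 2.81 and 2.85 in GO2 cells. The difference of 0.09 had an interval of -0.05 to 0.23 (adjusted p = 0.252), so that a change of 2-fold lay outside it. It turned to -0.12 when scaled to the spike-ins. The second probe differed by 0.00, and the third was above background on 1 array of each line.

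**Figure D4:**
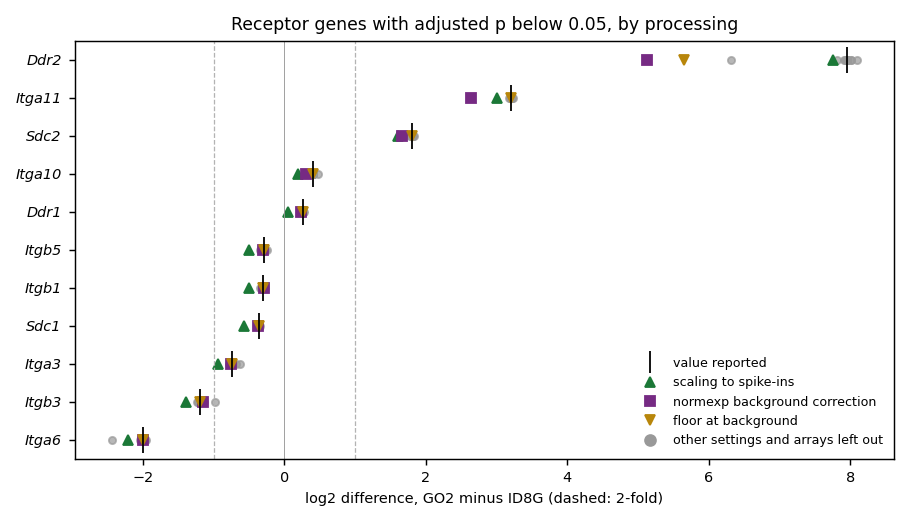
Difference, as log2 of GO2 minus ID8G, of the 11 receptor genes with an adjusted p below 0.05, 1 row per gene, with a bar at the value reported, symbols for 3 alternatives and gray points for the others and for each array left out. Sdc2 stays between 1.60 and 1.83, Itga11 between 2.64 and 3.23 and Itga6 between -2.44 and -1.95, and Itgb3 reaches -0.98, inside the dashed 2-fold line.

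The 5 calls were read under up to 16 other settings apart from the t-test named in the study's methods. Itga11, Itga6 and Sdc2 were called under all 16, Ddr2 under all 15 that could test it, and Itgb3 under 15. With a t-test with Welch correction on 2 arrays against 2, the adjusted p of the 5 genes was 0.114 to 0.125 and none was called, while without adjustment the same 3 higher and 2 lower receptor genes passed. For a single gene, an exact permutation test of 2 against 2 arrays cannot give a two-sided p below 0.333.

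Of 22 genes for integrin ligands, 13 were tested, 6 were called higher in GO2 cells and none lower, 46.2% called beside 9.90% over all genes. The ligand list and those below were chosen with earlier results of these data known, so their shares are no test of enrichment. Of the 6, Fbln5, Fbn1 and Tnc were tested only through GO2 cells, where they are high. With the filter on all 4 arrays, 3 of 10 ligands were called (30%), beside 6.57% of all genes. Fbln5, an elastic-fiber protein with an RGD motif, was not above background in ID8G cells (-5.74 and -6.03) and was at 1.51 and 1.48 in GO2 cells, at least 36.0-fold higher. Fbn1, the core of microfibrils, went from levels not above background (-4.42 and -4.34) to 1.56 and 1.49, at least 36.7-fold. Both lay far apart between the lines. Vcam1, a ligand of alpha4 and alpha9 integrins, went from -2.74 and -2.63 to 1.34 and 1.33, a log2 difference of 4.02 or 16.2-fold, and both alpha subunits were at background. Tnc, tenascin C, was at least 1.51-fold higher, a call that was lost with no filter or with a floor at background.

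Thbs1 and Fn1 were the other called ligands and are named after their values were seen. Thbs1, thrombospondin 1, differed by 2.07 (its second probe by 1.50). Fn1, fibronectin, was at 4.26 and 4.34 in ID8G cells and at 5.79 and 5.91 in GO2 cells, with differences of 1.55, 1.59 and 1.61 by its 3 probes. Of the bright ligands that were not called, Spp1, osteopontin, differed by -0.83, a difference called lower when scaled to the spike-ins, and Mfge8, an RGD protein that binds alphav integrins, by -0.02.

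Of 31 genes of the adhesion complex that links integrins to actin, 26 were tested, 2 were called higher and 1 lower, a share near the 9.90% over all genes. Both higher genes were tested only through GO2 cells. Tgfb1i1 (Hic-5, a relative of paxillin) went from levels not above background to -0.98 and -1.04 in GO2 cells, at least 6.37-fold higher, by the brighter of its probes. Ptk2b, the kinase Pyk2, was at least 2.68-fold higher by 1 probe while its other probe was above background on no array. Tns4, a tensin, was at 2.17 and 2.29 in ID8G cells and at 0.32 and 0.27 in GO2 cells, a log2 difference of -1.93, with -1.65 by its second probe. The brightest of the complex differed little, Tln1 (talin, which activates integrins) by 0.25 and Flna (filamin) by 0.22.

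None of the 15 tested genes of 16 integrin regulators was called, with differences of -0.82 to 0.97. The tetraspanins Cd63 and Cd151, which bind laminin-type integrins, differed by 0.26 and -0.03. Of 17 genes that act with syndecans and Cd44, 13 were tested and 2 were called (15.4%, beside 9.90% over all genes), both hyaluronan synthases. Both were tested only through GO2 cells, where they are high, and with the filter on all 4 arrays 0 of 11 were called. The rise of Has2 was at least 4.79-fold and that of Has1 at least 1.32-fold, neither being above background in ID8G cells. Has1 lost its call with a floor at background or with normexp. Ezr and Msn, which link Cd44 to actin, differed by -0.08 and -0.12. Over the 4 lists, 10 of 67 tested genes were called higher and 1 lower, and 7 of the 10 were tested only through GO2 cells. With the filter on all 4 arrays, 4 of 60 were called (6.67%), beside 6.57% of all genes.

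**Figure D5:**
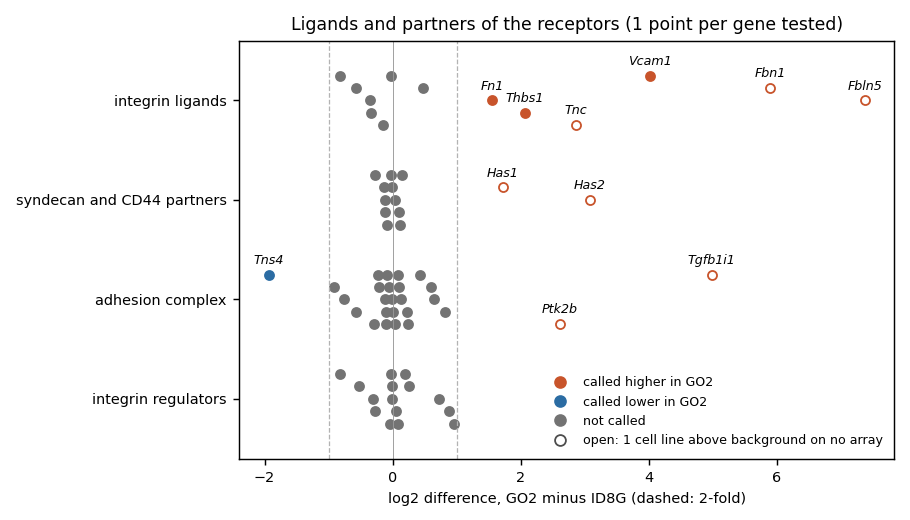
Difference of each tested gene of the 4 lists, as log2 of GO2 minus ID8G, with 1 point per gene, colors for the call and open points where 1 line was above background on no array. Of the 11 called genes 6 are ligands, all higher in GO2 cells, and Tns4 at -1.93 is the 1 called lower. No integrin regulator passes the dashed 2-fold lines.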

How the data were processed

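RNA of ID8G and GO2 cells was measured on 4 Agilent SurePrint arrays, 2 per line, all on 1 slide. The deposited scanner files hold spot intensities without scaling between arrays, from which Feature Extraction 11.5.1.1 had already taken the background. A deposited table of log2 values from GeneSpring, scaled to the 75th percentile and centered per probe, served as 1 alternative. Of the per-sample columns, 0 were left unused.

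Outlier spots were left out, the log2 intensities of the spots of a probe were averaged, and the 75th percentile of each array over probes that are not controls (intensity 627 to 675) was subtracted. This sets the upper quartile equal, and 7 spike-ins then differed by 0.150 to 0.278 on the log2 scale (GO2 minus ID8G). limma 3.58.1 (R 4.3.3) was fitted to 28368 probes with line as the only term, and p was adjusted by Benjamini-Hochberg over all of them. The number of arrays limits the precision. A fold against a line not above background is a lower bound, taken against the higher of the lowest signal well above background on that array and the probe's own. The procedure was tested on simulated data.

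RefSeq accessions named 32994 of 56605 probes (58.3%) through a table for GRCm38.p6. Because the array design uses mm9, only the RefSeq promoters have coordinates here. Called genes and the brightest 2 uncalled genes of each list are named, with up to 4 called genes per list. The receptor genes and lists were chosen with earlier results of these data known. Of the marker lists, 2 genes are not reported here.

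The replicate numbers were checked for pairing. The deviations of same-numbered arrays correlated at 0.0273, so no pairing was used. Alternatives were other background correction, scalings, filters, a floor at background, a variance trend, the methods' t-test, a replicate block, the deposited values, outlier spots kept, the mean over probes and each array left out. Counts at an unadjusted p with limma were added after the data were seen. Figures were drawn with matplotlib 3.10.9 in python 3.11.15.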

Additional observations from a re-analysis of the deposited data

How the results depend on the processing

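Apart from the methods' t-test, the receptor genes called stayed at 3 higher (4 with no filter, with Itga7) and 2 lower, except for 1 lower with the mean over probes (Itgb3 -0.98) and 2 higher with the filter on all 4 arrays, which cannot test Ddr2. The methods' t-test with adjustment called 0 receptor genes higher and 0 lower, 0 and 0 genes of the 4 lists, 0 and 3 of all genes (Krt23, Adcyap1r1 and Tmem108, named after their values were seen), and 0 and 3 probes. Without adjustment it called 3 and 2 receptor genes, and limma at an unadjusted p also 3 and 2. In the 4 lists, 2 genes were lower with no filter (Tns4 and Madcam1), 4 lower with scaling to spike-ins (Tns4, Arhgef7, Cd9 and Spp1), and 3 higher with the filter on all 4 arrays. Leaving out 1 array gave 10 genes higher and 1 to 2 lower there, the 2 lower, Tns4 and Arhgef7, without GO2 replicate 2. Over all genes that filter gave 449 higher. Over all probes, normexp gave 818 higher and 517 lower, the filter on all 4 arrays 666 and 606, and spike-in scaling 1434 lower, where the median of all tested probes moved from -0.02 to -0.23. Signs turned for Itga1 (-0.26 without ID8G replicate 1, up to 2.03 without ID8G replicate 2), for Itgav (-0.020) and Cd44 (-0.12) with spike-ins, and for Itgb2 with spike-ins (-0.21), the deposited values (-0.0016), median centering (-0.029), outlier spots kept (-0.00094), quantile normalization (-0.024) and with 1 array left out (-0.074 to 0.077). The cause was not tested. For the tested receptor genes and the called genes of the 4 lists, 548 values under alternatives were compared. Of these, 515 kept direction and side of the threshold, 23 lost the call and 10 turned. This tally leaves out Itga7, Madcam1, Arhgef7, Cd9 and Spp1, which gained a call under an alternative. The replicate block gave 3 receptor genes higher and 2 lower, and 776 and 517 of all genes, so that no receptor call changed. Slide as a block could not be fitted with 1 slide. Genes near background carry only bounds, and 12 of the 32 receptor genes could not be compared at this signal.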
